A study of Mus musculus with 6 samples.

Results

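The 36 genes described here encode voltage-gated calcium and sodium channels, channels of the transient receptor potential (TRP) family, and the proteins of store-operated calcium entry and calcium release. They were taken by gene symbol from a table of 22869 genes, and where a symbol had several rows, the most abundant row (by its mean over the 6 columns) was used. All 36 had a row: 8 calcium channel pores, 10 auxiliary calcium channel subunits, 9 sodium channel genes, 4 TRP channels and 5 genes of store-operated entry and release. The RNA came from pituitaries of female CD1 x C57BL/6 hybrid mice, 6 to 8 weeks old and given no treatment that the labels name. Cells were sorted by flow cytometry into somatotropes, which secrete growth hormone, and lactotropes, which secrete prolactin, with 3 libraries of each called biological replicates 1 to 3. The sources used here give neither the marker or reporter of the sort nor the number of animals behind a library. These sources also do not say whether libraries of the same replicate number belong together. Levels are FPKM, fragments per kilobase of transcript after scaling for library size. Dividing by length is meant to let different genes in a library be compared. Replicate 1 exceeded the other replicates more for long transcripts, as given below, so rankings of genes of unlike length depend on the library. A difference below is the mean log2(FPKM + 1) of somatotropes minus that of lactotropes, with its standard error (SE), and a positive value is a higher mean in somatotropes.

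Somatotropes and lactotropes fire action potentials without a stimulus, and the calcium that enters through voltage-gated channels drives basal hormone release. A voltage-gated calcium channel is built around 1 pore-forming alpha1 protein, whose trafficking and gating depend on a cytoplasmic beta subunit and an extracellular alpha2delta subunit. Sodium channels and the sodium leak channel NALCN set how easily the cells fire, IP3 receptors release calcium from the endoplasmic reticulum after receptor activation (thyrotropin-releasing hormone acts in this way on lactotropes), and STIM1 opens the plasma membrane channel ORAI1 once that store is depleted.

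The libraries differed in how many genes they detected. Genes above 0 numbered from 11318 in lactotrope 3 to 18592 in somatotrope 1, and 15 of the 36 channel and release genes were listed at 0 in lactotrope 3, against 1 to 8 in each of the other libraries. Many ordinary genes are also at 0 in lactotrope 3, where 50.51% of all genes were, so a 0 there is reported only as a listed value. The 2 replicate 1 libraries resembled each other (r = 0.93 over genes) more than either resembled the other libraries of its own cell type (r = 0.66 to 0.70). In these 2 libraries low values stood on whole fragments, which gives a depth, in units of 1e6 fragments, of 29.25 in somatotrope 1 and 17.65 in lactotrope 1. The depth of the other 4 libraries is unknown. Gh was 19384 to 84909 FPKM in somatotropes and 3954 to 7623 in lactotropes. Prl was 8709 to 24481 and 25171 to 195325 FPKM, so both hormones separated the cell types and neither was absent from the other. Summed markers of leukocytes (10 genes) were 37.14 to 432.5 FPKM in somatotropes and 139.9 to 1296 in lactotropes, those of stem and folliculostellate cells (7 genes) 167.4 to 1565 and 89.97 to 525.3, and those of endothelium (6 genes) at most 3.31 in any library. Markers of corticotropes and melanotropes (5 genes, mostly Pomc) summed to 95.91 to 5778 and 426.4 to 876.7 FPKM, and those of red blood cells (5 genes) to 29.54 to 4259 and 5.34 to 3529, both sums highest in somatotrope 3. Within pairs 5 of the 7 stem and folliculostellate markers were higher in somatotropes in all 3.

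None of the 36 genes was called different between the cell types by the test across all genes. The 16 with a mean of at least 1 FPKM were tested with limma among 11642 genes, and 0 passed an adjusted p of 0.05, where the share called over all tested genes was also 0.0%. The replicate number as a block gave 0 of 16 as well (0.0% of all tested genes). Gh and Prl, which separated the cell types, were not called by either fit. A lack of calls therefore does not show that levels were equal. At an unadjusted p under 0.05 the count was 0 of 16 without the block (0.962% of all tested genes) and 1 of 16 with it (10.9%), the 1 being Cacnb3. In no tested channel gene did the 3 libraries of one cell type all lie above the 3 of the other, a pattern found toward somatotropes in 2.51% and toward lactotropes in 1.15% of all tested genes. Within same-numbered pairs, Cacnb3, Cacnb4 and Trpm7 were higher in the somatotrope library of all 3 pairs (3 of 16, against 22.9% of all tested genes). Cacna2d1, Scn3a and Orai1 were higher in the lactotrope library of all 3 (3 of 16, against 11.2%). The median difference over the 16 was 0.167, beside 0.179 over all tested genes, and by pair it was -0.08, 0.016 and 0.48 in pairs 1 to 3. It ranged from -0.43 without somatotrope 1 to 0.87 without lactotrope 1, and with 1 library left out the difference turned sign for 13 of the 16 genes, all but Cacnb3, Cacnb4 and Orai1. In bulk samples fewer cells of a type and less RNA per cell cannot be told apart.

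**Figure D1:**
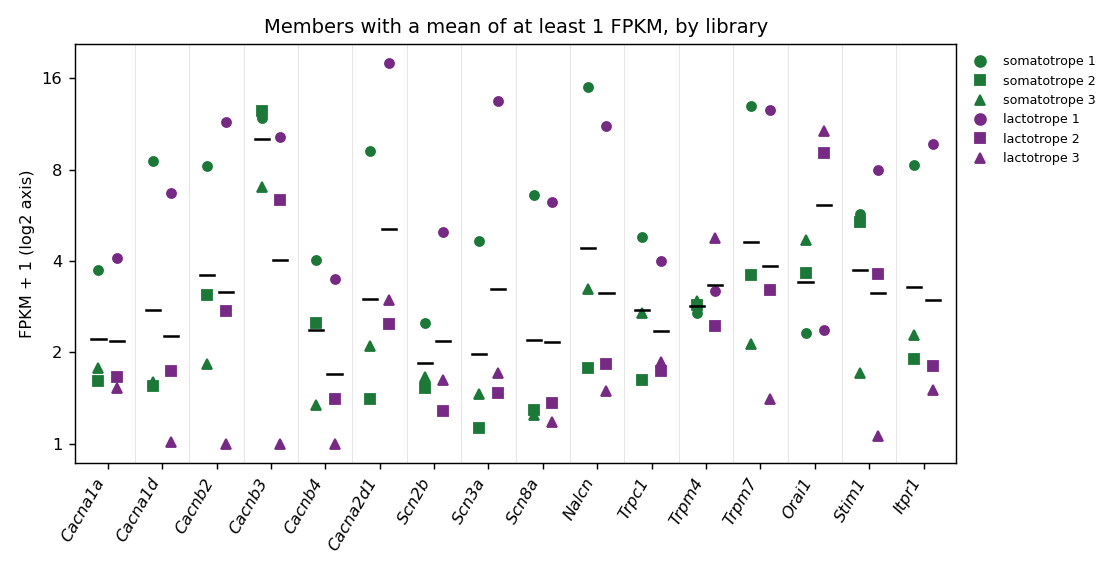
Levels of the 16 tested channel and release genes in each library, as FPKM + 1 on a log2 axis, green for somatotropes and purple for lactotropes, with a circle, square or triangle for replicates 1 to 3 and a bar at the mean of log2(FPKM + 1). The circles of replicate 1 stand highest for 13 of the 16 genes, while the means of the 2 cell types stay close, and Orai1 runs the other way.

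Of the calcium channel pores, 2 of 8 had a mean of at least 1 FPKM. Cacna1d, an L-type pore that opens at fairly negative voltages (chr14:30853125-31304342 in mm9, minus strand), had 7.57, 0.554 and 0.596 FPKM in somatotropes and 5.68, 0.737 and 0.0120 in lactotropes, in the order of replicates 1 to 3 here and below. Both replicate 1 libraries were high and the groups overlapped, with a difference of 0.285 (SE 0.90, limma adjusted p = 1.0). Cacna1a, the P/Q-type pore of presynaptic terminals (chr8:86939263-87164148, plus strand), had 2.74, 0.615 and 0.779 FPKM in somatotropes and 3.10, 0.664 and 0.523 in lactotropes. Its values ran side by side in every pair, and the difference was 0.02 (SE 0.70, limma adjusted p = 1.0). Behind these values stood 1924 fragments of Cacna1d in somatotrope 1 and 872 in lactotrope 1, estimated from depth and annotated transcript length, so in replicate 1 counting error is small beside the gap between replicates.

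The other 6 pores were low in most libraries. Cacna1h, a T-type pore of low-voltage-activated current, reached 1.22 FPKM in somatotrope 1 and 0.729 in somatotrope 3, and was 0.0493 in somatotrope 2. In lactotropes it was 0.527, 0.0922 and 0. Cacna1g, another T-type pore, was highest in lactotrope 1 at 1.94 FPKM, with 0.487 in somatotrope 1 and at most 0.146 elsewhere. The third T-type gene, Cacna1i, did not pass 0.321 FPKM in any library. Cacna1b, the N-type pore of nerve terminals, was 1.16 FPKM in somatotrope 1 and 0.577 in lactotrope 1, and at most 0.0456 in the others. Cacna1c, the L-type pore of heart and smooth muscle, was higher in the lactotrope library of each pair, at 1.12 against 0.396, 0.0721 against 0 and 0.114 against 0.00300 FPKM. Cacna1e, the R-type pore, stayed at or under 0.344 FPKM.

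Set against each other within a library, the pores had the same leaders in both cell types. Cacna1d held the largest share of the summed pore FPKM in somatotrope 1 (53.85%), lactotrope 1 (42.34%) and lactotrope 2 (40.78%). Cacna1a held it in somatotrope 2 (50.06%), somatotrope 3 (34.66%) and lactotrope 3 (65.73%). By type, the L-type pair of genes made up 42.8% ± 15.2 in somatotropes and 37.1% ± 18.6 in lactotropes (SD, n = 3 each; two-sided exact permutation p = 0.6, adjusted 0.9 over 15 shares). The P/Q, N and R types made up 38.1% ± 11.3 and 45.05% ± 18.5 (exact permutation p = 0.6, adjusted 0.9), and the T types 19.1% ± 17.7 and 17.8% ± 1.87 (exact permutation p = 1.0, adjusted 1.0). The sign of all 3 differences turned when 1 library was left out. The sums themselves were 14.1, 1.23 and 2.25 FPKM in somatotropes and 13.4, 1.81 and 0.796 in lactotropes, so the pair of replicate 1 libraries, not a cell type, stood apart.

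The auxiliary subunits held the gene with the largest difference of the set. Cacnb3 encodes a beta subunit that binds the pore from the cytoplasm and carries it to the membrane (chr15:98462651-98474961, plus strand). It was 10.8, 11.5 and 6.02 FPKM in somatotropes and 9.24, 5.37 and 0 in lactotropes. The 3 somatotrope values lay above lactotropes 2 and 3, but lactotrope 1 lay above somatotrope 3, so the groups overlapped. The difference was 1.33 (SE 0.86, limma adjusted p = 1.0), and with the replicate number as a block the unadjusted p was 0.0286 and the adjusted p 0.410. Somatotrope to lactotrope ratios were 1.17 in pair 1 and 2.15 in pair 2, and lactotrope 3 was listed at 0. Without lactotrope 3 the difference was 0.33, and with replicates 2 and 3 only it was 1.89. Cacnb3 was the highest of the 36 genes in somatotropes 2 and 3.

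Cacnb4, a beta subunit of neurons (chr2:52283840-52414087, minus strand), had 3.02, 1.497 and 0.338 FPKM in somatotropes and 2.50, 0.408 and 0 in lactotropes. Each somatotrope library exceeded its lactotrope partner, with a difference of 0.48 (SE 0.72, limma adjusted p = 1.0) that fell to 0.10 without lactotrope 3. Cacnb2, a beta subunit of heart and endocrine cells (chr2:14525933-14909535, plus strand), had 7.22, 2.10 and 0.826 FPKM in somatotropes and 10.5, 1.74 and 0 in lactotropes. Here pair 1 ran toward lactotropes and pairs 2 and 3 toward somatotropes (difference 0.19, SE 0.94, limma adjusted p = 1.0). Cacnb1, the beta subunit of skeletal muscle, was between 0 and 1.52 FPKM.

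All 4 beta genes were listed at 0 in lactotrope 3, so shares within the beta family rest on 3 somatotrope and 2 lactotrope libraries. The beta transcripts run from 1778 bases (Cacnb1) to 7872 (Cacnb4), and the part of length in these shares was not tested. Cacnb3 held the largest share in 4 of these 5 libraries, at 49.3%, 73.7% and 83.8% in somatotropes and 65.7% in lactotrope 2. In lactotrope 1 it held 38.9% and Cacnb2 held 44.2%. The mean shares of Cacnb3, 68.9% and 52.3%, did not pass the test (two-sided exact permutation p = 0.4, adjusted 0.857). Cacnb2 held 19.3% ± 11.9 (SD, n = 3) and 32.8% ± 16.2 (n = 2), with exact permutation p = 0.4. Cacnb4 held 9.36% and 7.76% (exact permutation p = 0.8). Cacnb1 was a small part, 3.998%, 3.21% and 0% in somatotropes and 6.42% and 7.95% in lactotropes, which is separated at the smallest p the design allows (exact permutation p = 0.1, adjusted 0.5).

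Cacna2d1 encodes the alpha2delta protein that raises channel density at the surface and is the target of gabapentin (chr5:15440509-15880329, plus strand). Its levels were 8.23, 0.404 and 1.10 FPKM in somatotropes and 16.97, 1.48 and 1.98 in lactotropes. The lactotrope library was higher in every pair, by 2.06, 3.68 and 1.81 times, yet somatotrope 1 lay above lactotropes 2 and 3. The difference was -0.76 (SE 0.95, limma adjusted p = 1.0). It was 0.14 without lactotrope 1, and -0.67 with replicates 2 and 3 only. Cacna2d1 was the highest of the 36 genes in lactotrope 1.

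The remaining auxiliary genes had means under 1 FPKM. Cacna2d3, another alpha2delta gene, was 2.57 FPKM in somatotrope 2, 0.614 in somatotrope 3 and 0.0185 in somatotrope 1, beside 1.07, 0.331 and 0 in lactotropes. Cacng4, a transmembrane protein that mainly escorts AMPA receptors, was also highest in somatotrope 2, at 1.91 FPKM, and 0.477 or less in the others. Somatotrope 2 was the library with the highest sum of stem and folliculostellate markers (1565 FPKM), and the part of those cells in these 2 values was not tested. Cacna2d2 stayed at or under 0.720 FPKM and Cacng2, the AMPA receptor partner called stargazin, at or under 0.178. Cacng5, a further gene of the same family, was above 0 only in somatotrope 1, at 0.0181 FPKM or about 2 fragments.

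**Figure D2:**
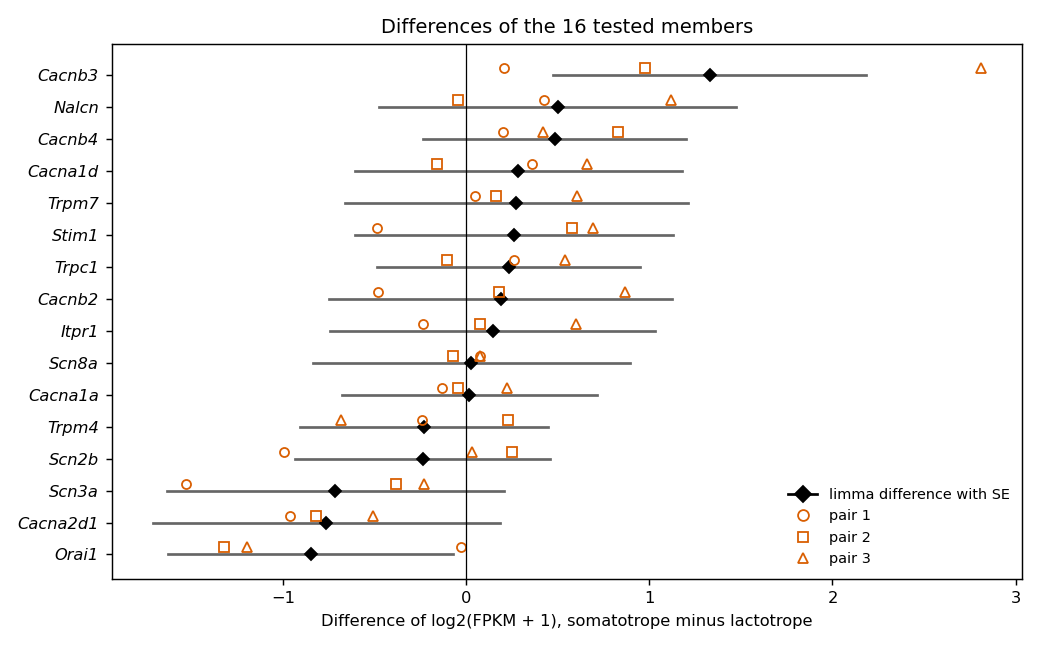
Difference of log2(FPKM + 1), somatotrope minus lactotrope, for the 16 tested genes in order of size: black diamonds are the limma estimates with a line of 1 SE to each side, and open orange symbols the 3 same-numbered pairs. Cacnb3 stands farthest to the right at 1.33 and Orai1 farthest to the left at -0.85, and the SE lines of all the others cross 0.

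For the 4 genes that were highest of the set in at least 1 library (Nalcn, Cacnb3, Cacna2d1 and Orai1), the 250 bases before an annotated start are printed here from RefSeq on GRCm38.p6, 5′ to 3′ on the gene's strand. They are shown for their base composition. In Cacnb3 (chr15:98632078-98632327, plus strand) the capitals mark a match to ATGNATA, the core of sites bound by the pituitary POU factor PIT1, which begins 146 bases before the start. In the others the capitals mark CG dinucleotides: Cacna2d1 (chr5:15934441-15934690, plus strand), Nalcn (chr14:123627145-123627394, minus strand) and Orai1 (chr5:123014824-123015073, plus strand).
Cacnb3: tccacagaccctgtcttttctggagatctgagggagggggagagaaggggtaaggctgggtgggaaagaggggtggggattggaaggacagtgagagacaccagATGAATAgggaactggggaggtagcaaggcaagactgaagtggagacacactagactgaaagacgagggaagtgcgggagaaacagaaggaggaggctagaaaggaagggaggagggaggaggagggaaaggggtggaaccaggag
Cacna2d1: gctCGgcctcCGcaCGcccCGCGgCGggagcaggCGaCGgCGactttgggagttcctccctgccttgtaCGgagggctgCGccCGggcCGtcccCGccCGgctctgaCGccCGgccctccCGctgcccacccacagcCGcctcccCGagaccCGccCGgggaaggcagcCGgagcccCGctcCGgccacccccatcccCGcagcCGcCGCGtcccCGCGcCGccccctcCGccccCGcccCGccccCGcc
Nalcn: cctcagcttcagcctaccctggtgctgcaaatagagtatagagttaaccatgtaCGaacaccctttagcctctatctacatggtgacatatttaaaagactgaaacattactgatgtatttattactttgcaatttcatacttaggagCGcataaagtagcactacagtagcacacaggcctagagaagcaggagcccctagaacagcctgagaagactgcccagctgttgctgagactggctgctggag
Orai1: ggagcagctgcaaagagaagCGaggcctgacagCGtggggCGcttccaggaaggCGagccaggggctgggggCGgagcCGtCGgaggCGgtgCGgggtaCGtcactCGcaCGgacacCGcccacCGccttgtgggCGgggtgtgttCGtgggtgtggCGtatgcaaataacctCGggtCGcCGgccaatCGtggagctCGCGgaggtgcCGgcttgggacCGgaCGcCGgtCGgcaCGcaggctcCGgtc

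Cacna2d1 has 82.4% G or C and 36 CG dinucleotides, Orai1 70.8% and 30, Cacnb3 56.0% and 2, and Nalcn 45.2% and 2. A further RefSeq start of Cacnb3 has a window with 70.4% and 23, so the printed one does not stand for the whole gene. Over all 32851 promoter windows of this length the medians were 52.4% and 6. RefSeq windows were found for 28 of the 36 genes, 39 windows in all, with medians of 62.0% G or C and 16 CG dinucleotides. The 18 windows of tested genes had medians of 65.4% and 23, and the 21 windows of genes below 1 FPKM 62.0% and 12. ATGNATA was searched on both strands and was in 2 of the 39 windows, 1 of Cacnb3 and 1 of Scn1a, against 7.92% of all windows. Neither the cyclic AMP response element TGACGTCA (1.55% of all windows) nor TTCAGCACC, the first part of the site of the neuronal gene repressor REST (0.301%), was in any of the 39. None of the 3 motifs contains another. A match is a string of letters and no measured binding site.

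Among the sodium channel pores the levels overlapped between the cell types, while the shares of 2 genes within the family did not. Scn3a, a pore gene of embryonic neurons and endocrine cells (chr2:65295175-65405549, minus strand), had 3.67, 0.131 and 0.454 FPKM in somatotropes and 12.5, 0.474 and 0.708 in lactotropes. The lactotrope library was higher in every pair, by 3.41, 3.60 and 1.56 times, but somatotrope 1 exceeded lactotropes 2 and 3. The difference was -0.72 (SE 0.92, limma adjusted p = 1.0), and it was 0.32 without lactotrope 1 and -0.31 with replicates 2 and 3 only. Scn8a, the pore of axon initial segments (chr15:100766702-100876360, plus strand), had 5.62, 0.296 and 0.246 FPKM in somatotropes and 5.28, 0.360 and 0.181 in lactotropes. Its values were alike within each pair (difference 0.03, SE 0.87, limma adjusted p = 1.0).

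Scn9a, the pore known from pain neurons and found in many endocrine cells, had a mean under 1 FPKM, with 1.98, 0.190 and 0.232 FPKM in somatotropes and 1.84, 0.0841 and 0.00645 in lactotropes. It was higher in the somatotrope library of all 3 pairs. Scn2a1, a pore gene of unmyelinated axons, was 0.555, 0.238 and 0.119 FPKM in somatotropes and 1.18, 0.116 and 0.0166 in lactotropes. Scn1a, the pore of inhibitory interneurons, was 0.503 FPKM in somatotrope 1 and 0.294 in lactotrope 1, and 0.000900 or less in the others.

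As a share of the summed FPKM of these 5 sodium pores, Scn3a was 29.8%, 15.4% and 43.2% in somatotropes and 59.3%, 45.8% and 77.5% in lactotropes. The groups do not overlap, with means of 29.4% ± 13.9 and 60.9% ± 15.9 (SD, n = 3 each; two-sided exact permutation p = 0.1, the smallest that 3 against 3 allows, adjusted 0.5 over 15 shares). The share of Scn9a ran the other way, 16.1%, 22.3% and 22.1% in somatotropes and 8.71%, 8.13% and 0.706% in lactotropes. Its groups do not overlap either (means 20.1% ± 3.52 and 5.85% ± 4.46, SD, n = 3 each; exact permutation p = 0.1, adjusted 0.5). Neither share passes the adjusted threshold. With any 1 library left out the difference in the Scn3a share stayed between -39.0 and -23.1 percentage points and that in the Scn9a share between 11.7 and 16.3. Shares within a library do not move with its scaling, but the sums behind them were 12.3 and 21.1 FPKM in replicate 1 and 0.856 to 1.05 in the other 4 libraries. The shares of Scn8a (34.5% and 26.6%, exact permutation p = 0.5), Scn2a1 (14.6% and 6.22%, p = 0.4) and Scn1a (1.36% and 0.498%, p = 1.0) overlapped.

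**Figure D3:**
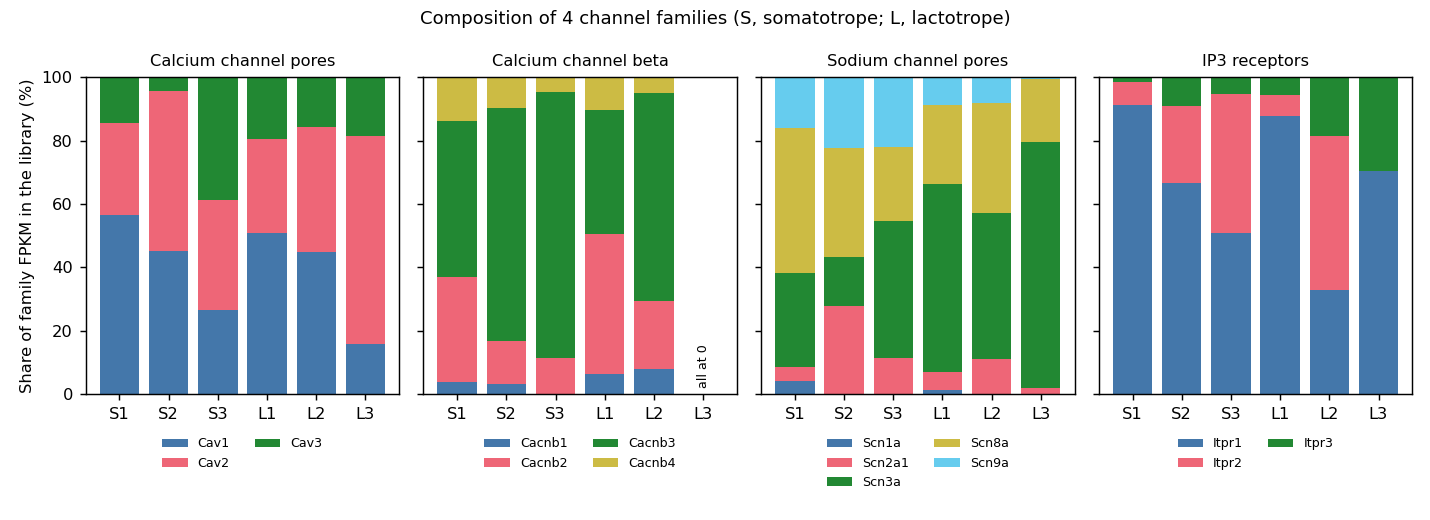
Percent of the summed FPKM of a channel family in each library, for calcium channel pore types (Cav1 is L-type, Cav2 is P/Q, N and R, Cav3 is T-type), beta subunits, sodium channel pores and IP3 receptors, with S for somatotropes, L for lactotropes and the replicate number. Among sodium pores the green Scn3a part is larger in all 3 lactotrope bars (45.8% to 77.5%) than in the somatotrope bars (15.4% to 43.2%), and lactotrope 3 has no beta bar because all 4 genes were listed at 0.

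The sodium channel beta subunits, small membrane proteins that adjust gating and adhesion, were less abundant. Scn2b (chr9:44925959-44938153, plus strand) had 1.499, 0.528 and 0.659 FPKM in somatotropes and 3.98, 0.284 and 0.623 in lactotropes. Lactotrope 1 alone lay above the rest, and the difference was -0.24 (SE 0.70, limma adjusted p = 1.0), or 0.36 without that library. Scn3b (chr9:40076801-40099203, plus strand) had 0.272, 0.175 and 0.110 FPKM in somatotropes and 2.19, 0.361 and 2.05 in lactotropes, with about 33 fragments in somatotrope 1 and 160 in lactotrope 1. All 3 lactotrope libraries lay above all 3 somatotrope libraries, although the mean of 0.858 FPKM kept the gene out of the tested set. Fitted with no filter on low values, its difference was -0.998 (SE 0.42, limma adjusted p = 1.0). Scn4b was above 0 only in lactotrope 2, at 0.00330 FPKM.

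Over the 36 genes, 2 were separated toward lactotropes, Scn3b and Itpr3, where 0.997% of the 19557 genes above 0 in any library were. Toward somatotropes 0 of 36 were separated (2.23% of those genes). By pairs, 5 of 36 were higher in somatotropes in all 3 (16.6% of those genes), which adds Cacng2 and Scn9a to the tested 3. Toward lactotropes 6 of 36 were (8.05%), which adds Cacna1c, Scn3b and Itpr3. Leukocyte markers were higher in lactotropes in all 3 pairs for 9 of 10 genes, with sums of 139.9, 1296 and 686.2 FPKM in lactotropes and 37.14, 432.5 and 343.5 in somatotropes. Their part in the values of Scn3b and Itpr3 was not tested.

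Nalcn encodes the sodium leak channel that holds the resting potential near the firing threshold (chr14:123675863-124026366, minus strand). It had 14.0, 0.776 and 2.25 FPKM in somatotropes and 10.2, 0.834 and 0.495 in lactotropes, and was the highest of the 36 genes in somatotrope 1. Pairs 1 and 3 ran toward somatotropes and pair 2 slightly toward lactotropes, with a difference of 0.50 (SE 0.98, limma adjusted p = 1.0) that was -0.38 without somatotrope 1. The neuronal nuclear marker Rbfox3 did not pass 0.210 FPKM in any library, but Avp and Oxt, hormones of the neural lobe, reached 92.96 and 99.49 FPKM in somatotrope 3. In the replicate 1 libraries, where Nalcn was high, neither passed 0.653. Of the other neuron and pituicyte markers, Gfap and Rax were listed at 0 in both of these libraries. Aqp4 was 3.03, 3.16 and 1.04 FPKM in somatotropes and 2.10, 3.00 and 0 in lactotropes. Syt1 and Snap25, which neurons share with endocrine cells, were highest in the replicate 1 libraries of both cell types, as Nalcn was (Snap25 165.7 and 136.8 FPKM). The part of neural tissue in the values of Nalcn was not tested.

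Of the TRP channels, 3 of 4 were tested. Trpm7, a channel fused to a kinase that passes magnesium and calcium (chr2:126617294-126701997, minus strand), had 12.0, 2.59 and 1.137 FPKM in somatotropes and 11.6, 2.20 and 0.404 in lactotropes. It was higher in the somatotrope library of every pair, by 1.04, 1.18 and 2.81 times, with a difference of 0.27 (SE 0.94, limma adjusted p = 1.0) that was -0.47 without somatotrope 1. Trpc1, a subunit of receptor-operated cation channels (chr9:95607048-95650777, minus strand), had 3.80, 0.617 and 1.70 FPKM in somatotropes and 3.01, 0.737 and 0.859 in lactotropes (difference 0.23, SE 0.72, limma adjusted p = 1.0). Again both replicate 1 libraries were highest.

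Trpm4, a calcium-activated channel that passes sodium but not calcium (chr7:52558525-52589150, minus strand), varied little between libraries. It had 1.69, 1.86 and 1.96 FPKM in somatotropes and 2.18, 1.44 and 3.76 in lactotropes, so replicate 1 did not stand out. The mean was 1.84 ± 0.137 FPKM in somatotropes and 2.46 ± 1.19 in lactotropes (SD, n = 3 each), and lactotrope 3 alone set the wider spread (difference -0.23, SE 0.68, limma adjusted p = 1.0; 0.03 without lactotrope 3). Trpc6, a channel opened by diacylglycerol, was 2.00 FPKM in lactotrope 1, 0.210 in somatotrope 1 and at most 0.0918 elsewhere.

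Store-operated entry held the largest difference toward lactotropes among the 16 tested genes. Orai1, the pore through which calcium enters after store depletion (chr5:123465083-123480461, plus strand), had 1.32, 2.65 and 3.69 FPKM in somatotropes and 1.36, 8.12 and 9.76 in lactotropes. Pair 1 was nearly equal, and in pairs 2 and 3 the lactotrope library was 3.07 and 2.64 times higher. The groups overlapped only because lactotrope 1 lay below somatotropes 2 and 3. The difference was -0.85 (SE 0.78, limma adjusted p = 1.0), between -1.54 and -0.45 with 1 library left out and -1.26 with replicates 2 and 3 only. Orai1 was the highest of the 36 genes in lactotropes 2 and 3. The leukocyte marker sums followed the same order within each pair, 37.14 and 139.9 FPKM in pair 1, 432.5 and 1296 in pair 2, 343.5 and 686.2 in pair 3, and were lowest in replicate 1, as Orai1 was. Their part in its values was not tested.

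Stim1, the calcium sensor of the endoplasmic reticulum that opens Orai1 (chr7:109416338-109585369, plus strand), did not follow it. Its levels were 4.72, 4.396 and 0.710 FPKM in somatotropes and 7.002, 2.62 and 0.0580 in lactotropes. Pair 1 ran toward lactotropes and pairs 2 and 3 toward somatotropes (difference 0.26, SE 0.87, limma adjusted p = 1.0). In lactotrope 3 the sensor was near 0 while the channel was at its highest.

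Of the IP3 receptors, the calcium release channels of the endoplasmic reticulum, only Itpr1 was tested. Itpr1 (chr6:108163090-108501110, plus strand) had 7.26, 0.898 and 1.28 FPKM in somatotropes and 8.75, 0.801 and 0.507 in lactotropes (difference 0.15, SE 0.89, limma adjusted p = 1.0). The 2 replicate 1 libraries were above the other 4. Itpr2 was 0.569, 0.328 and 1.10 FPKM in somatotropes and 0.675, 1.18 and 0 in lactotropes, with no order between the groups. Itpr3 (chr17:27194249-27259168, plus strand) was 0.129, 0.123 and 0.131 FPKM in somatotropes and 0.555, 0.449 and 0.212 in lactotropes. All 3 lactotrope values lay above the somatotrope values, by 4.29, 3.64 and 1.62 times within pairs, at about 34 fragments in somatotrope 1 and 88 in lactotrope 1. With no filter its difference was -0.31 (SE 0.13, limma adjusted p = 1.0).

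Itpr1 made up most of the summed IP3 receptor FPKM in both cell types, 69.6% ± 20.3 in somatotropes and 63.7% ± 28.0 in lactotropes (SD, n = 3 each; two-sided exact permutation p = 0.9, adjusted 1.0). In lactotrope 2 it held 33.0% and Itpr2 48.6%. Itpr2 held 25.1% and 18.5% on average (exact permutation p = 0.7). Itpr3 held 1.62%, 9.14% and 5.19% in somatotropes and 5.56%, 18.5% and 29.5% in lactotropes, higher in each lactotrope library than in its partner (exact permutation p = 0.2, adjusted 0.75).

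**Figure D4:**
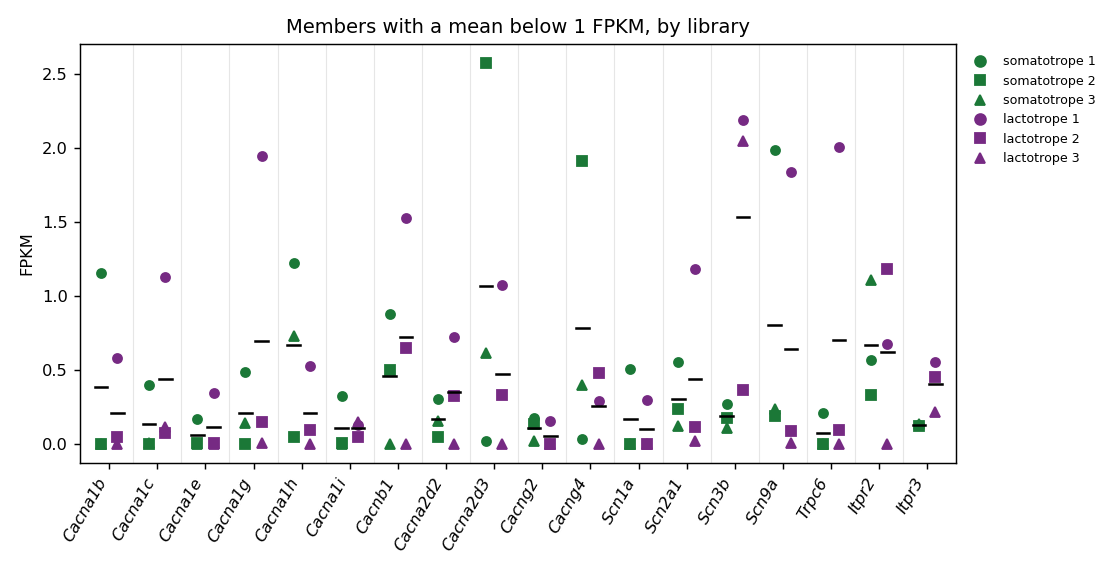
FPKM in each library of the genes with a mean below 1 FPKM, except Cacng5 and Scn4b, which were nearly always at 0. Symbols are as in the plot of the tested genes and bars are group means of FPKM. Scn3b and Itpr3 are the genes whose lactotrope values all lie above the somatotrope values, and Cacna2d3 and Cacng4 are highest in somatotrope 2.

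For every tested gene but Cacnb3 and Trpm4, the gap between replicate 1 and the other replicates was larger than that between the cell types. For 23 of the 36 genes, and 13 of the 16 tested, the 2 replicate 1 libraries were the 2 highest, as they were for 57.7% of all tested genes. The median of log2(FPKM + 1) in replicate 1 minus replicates 2 and 3 was 1.88 over the 16 and 1.002 over all tested genes. Longer transcripts had larger values: with all tested genes in 4 classes of equal size by length, the median was 0.64 in the shortest (median length 1142 bases), 0.79 and 1.11 in the next ones and 1.49 in the longest (median 5329 bases). Channel transcripts are long. Their median was 6984 bases over the 35 with an annotated length, from 1778 (Cacnb1) to 14921 (Cacna1e), and 24 of the 35 fell in the longest class, above 4089 bases. Of the tested genes 14 of 16 were higher in replicate 1. The exceptions were Orai1 (-1.45), among the shorter ones at 1875 bases, and Trpm4 (-0.11), at 4234 bases. The part of transcript length, amplification or RNA quality in this pattern was not tested.

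**Figure D5:**
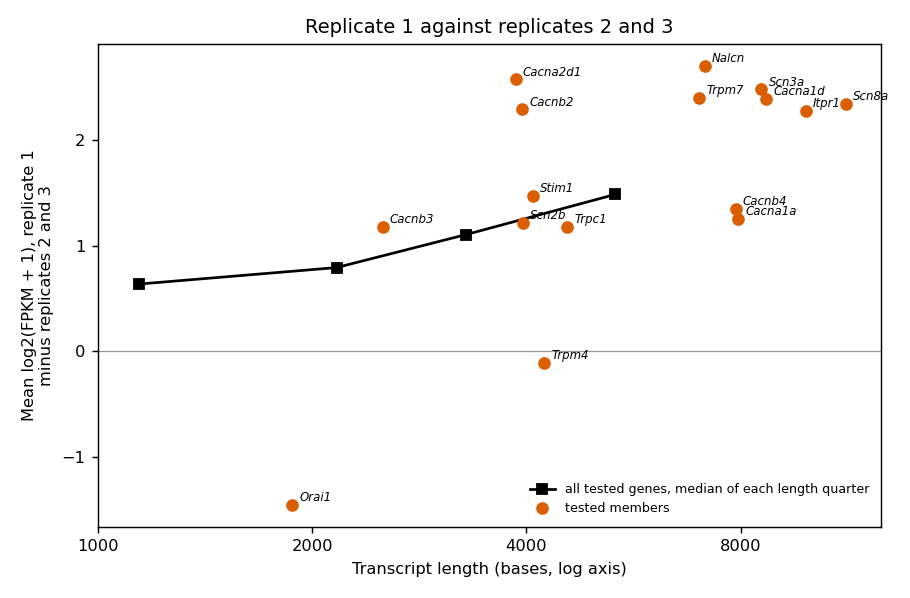
Mean log2(FPKM + 1) of both replicate 1 libraries minus that of the 4 libraries of replicates 2 and 3, against annotated transcript length in bases on a log axis. Black squares are medians of all tested genes in 4 classes by length, from 0.64 to 1.49, and orange points are the 16 tested channel and release genes, of which Orai1 (-1.45) and Trpm4 (-0.11) lie below 0.

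Several of the genes are neighbours in the genome (mm9). On chromosome 2, Scn3a and Scn2a1 lie 102952 bases apart, and Scn1a and Scn9a 39243. Within this cluster Scn3a was above Scn9a in every library but somatotrope 2. Scn2b and Scn4b lie 8971 bases apart on chromosome 9, and Scn4b was at or near 0 where Scn2b was not. Cacng4 and Cacng5 lie 80140 bases apart on chromosome 11, and Cacna2d3 and Cacna1d 318074 on chromosome 14. Pore genes of a family have similar coding sequences, and the sources used here do not say how fragments matching several genes were assigned, so shares between them are uncertain to that extent.

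Beyond the 36, the other genes of calcium handling were not called by the test either, with the same limit as above. Of 105 genes in 6 lists, 58 were tested, and limma called 0 with and without the replicate block. Of these 58, none was separated, and in all 3 pairs 10 were higher in somatotropes and 7 in lactotropes, beside 22.9% and 11.2% of all tested genes. Among the untested genes of the lists, 3 were separated, and they are named with their values in view. Over the 19557 genes above 0 in any library, 2.23% were separated toward somatotropes and 0.997% toward lactotropes. Itpripl1, related to an IP3 receptor regulator, lay toward lactotropes, with 0.222, 0.223 and 0.0235 FPKM in somatotropes and 0.553, 1.76 and 2.08 in lactotropes. Atp2b4, a plasma membrane calcium pump, lay toward somatotropes, with 1.38, 0.928 and 1.23 FPKM against 0.672, 0.703 and 0. Ryr3, a ryanodine receptor that releases stored calcium, did so at 0.301 FPKM or less in every library. Medians were 0.27 for 7 further channel subunits, 0.31 for 11 TRP, store and release genes, 0.46 for 8 calcium pumps and exchangers, 0.16 for 10 mitochondrial calcium genes, 0.25 for 13 buffers and sensors and -0.38 for 9 channel modulators, beside 0.179 over all tested genes. The next genes were picked with their values in view, among those of one sign in all 3 pairs with the largest differences. Trpv4, a cation channel gated by swelling and heat, had 1.55, 10.8 and 4.23 FPKM in somatotropes and 1.30, 3.62 and 0 in lactotropes (difference 1.30, SE 0.83, limma adjusted p = 1.0). The stem and folliculostellate sums, 167.4, 1565 and 946.8 FPKM in somatotropes and 89.97, 525.3 and 133.0 in lactotropes, were also higher in somatotropes in each pair and highest in replicate 2 of both cell types. Their part in the values of Trpv4 was not tested. Slc24a2, a sodium, calcium and potassium exchanger, had 4.69, 0.313 and 1.20 FPKM in somatotropes and 1.46, 0.149 and 0 in lactotropes.

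Rem2 and Rrad belong to the RGK family, small GTPases that bind beta subunits and silence voltage-gated calcium channels. Rem2 had 14.7, 4.66 and 7.77 FPKM in somatotropes and 30.8, 8.39 and 15.2 in lactotropes, and each lactotrope library was above its partner (difference -0.88, SE 0.67, limma adjusted p = 1.0). Rrad had 0.890, 3.17 and 3.78 FPKM in somatotropes and 1.84, 11.6 and 8.44 in lactotropes (difference -1.05, SE 0.78, limma adjusted p = 1.0). The other RGK genes, Gem and Rem1, had no common direction over the pairs: Gem had 1.55, 0.542 and 7.54 FPKM in somatotropes and 9.93, 2.19 and 1.42 in lactotropes, and Rem1 did not pass 0.533 in any library. Trpv2, a TRP channel also found in macrophages, had 0.236, 1.32 and 1.16 FPKM in somatotropes and 0.392, 7.21 and 3.40 in lactotropes. Rrad and Trpv2, like Orai1 and the summed leukocyte markers, were lowest in replicate 1 of both cell types, and the part of leukocytes in their values was not tested.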

How the data were processed

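Sorted cells went into Trizol LS, and the NuGen Ovation V2 kit amplified their RNA for Illumina sequencing, per the labels' protocols. The tools named are TopHat, edgeR and bcl2fastq 2.17.1.14, and the build is mm9, per the submitters' processing notes. The deposited table, made by the authors, holds FPKM in 30399 rows and 1 column for each of the 6 libraries. The sources used here do not say how fragments were assigned to transcripts, multiply matching ones included.

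Rows without a symbol (889) were dropped. Values were analysed as log2(FPKM + 1), a scale that understates the change of low genes. Testing used limma 3.58.1 (R 4.3.3, trend on mean level) for the 11642 genes that averaged 1 FPKM or more, at a Benjamini-Hochberg adjusted p of 0.05. The titles number the replicates but do not say that libraries of the same number belong together. Deviations from group means correlated between such libraries (r = 0.763, 0.613 and 0.341 over genes). Since both replicate 1 libraries stood apart, deviations in replicates 2 and 3 tend to correlate anyway, so these values cannot establish pairs. Somatotrope 2 was closest to lactotrope 2 (r = 0.894). Somatotrope 3 was closer to lactotrope 2 (r = 0.848) than to lactotrope 3 (r = 0.782). Same-numbered libraries were treated as pairs, and a fit blocked on the number was an alternative. P-values measure the spread between these 6 libraries. Shares were compared with two-sided exact permutation tests in SciPy 1.17.1 (Python 3.11.15). Transcript lengths came from GENCODE vM21, and promoters from RefSeq on GRCm38.p6. Fragments in replicate 1 were estimated from lengths and a depth at which all 238 (somatotrope 1) and 127 (lactotrope 1) low values examined were within 0.1 of a whole number. Such estimates cover counting error only.

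Every member is named. Those with a mean of at least 1 FPKM are given in every library, and genes of the other lists by counts. The naming rule for those lists (tested genes separated between cell types) was met by none, so the genes named from them were picked with their values in view. Of their symbols, 7 were matched through older names. The members and lists were chosen with earlier results of these data known. The code was tested on simulated data. Alternatives were another pseudocount, filters, scalings, summed rows, array weights, the block and libraries left out.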

Additional observations from a re-analysis of the deposited data

How the results depend on the processing

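No channel or release gene was called under any of the 16 alternatives, and the lowest adjusted p of a tested one over all settings was 0.347 (limma). With the replicate block, which takes libraries of the same number as pairs, the count called stayed 0 and no call changed. Over all genes the count called was 0, but 9 with array weights, 43 with array weights and the block, and 0 to 3 with 1 library left out (3 without somatotrope 1). The median difference of the tested genes, 0.167, ranged from -0.431 (without somatotrope 1) to 0.868 (without lactotrope 1) and was -0.377 without lactotrope 3. The count of separated genes, 2, became 3 to 8 with 1 library left out and 13 with replicates 2 and 3 only. The count with 1 sign in all pairs, 11, became 17 to 19 with 1 library left out and 19 with replicates 2 and 3 only. Both counts rest on fewer libraries there, and with fewer libraries more genes meet either pattern by chance. The share over all genes is not given for these reduced settings. The higher counts therefore cannot be read as more differences between the cell types.

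The difference turned sign in some alternative for 13 of the 16 tested genes, for each of them with 1 library left out and for 7 in other settings too. Cacnb3, Cacnb4 and Orai1 kept theirs, and all 16 changed in size by over 1.5 times. With 1 library left out the ranges were -0.364 to 0.472 for Cacna1a, -0.53 to 1.063 for Cacna1d, -0.642 to 1.12 for Cacnb2, -1.573 to 0.144 for Cacna2d1, -0.62 to 0.358 for Scn2b, -1.337 to 0.315 for Scn3a, -0.766 to 0.797 for Scn8a and -0.382 to 1.418 for Nalcn. They were -0.168 to 0.618 for Trpc1, -0.456 to 0.027 for Trpm4, -0.471 to 1.129 for Trpm7, -0.52 to 0.939 for Stim1 and -0.518 to 1.0 for Itpr1. The scaling moved the median of all tested genes from 0.179 to 0.051 (median ratio) and 0.004 (quantile). With median-ratio scaling Cacna1a was -0.054 and Scn8a -0.019. With quantile normalization Cacna1a was -0.166, Scn8a -0.159, Stim1 -0.072 and Itpr1 -0.066. Array weights gave 0.249 for Scn2b and 0.157 for Trpm4, and with the block -0.043 for Cacna1a and -0.005 for Cacnb2. Replicates 2 and 3 only gave 0.141 for Scn2b.

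Differences in share turned sign for 7 of 15. With 1 library left out they ranged, in percentage points, from -4.959 to 13.751 for L-type pores, -14.517 to 3.379 for P/Q, N and R types and -8.502 to 8.735 for T types. The range was -1.148 to 4.359 for Cacnb4, -0.498 to 1.542 for Scn1a, -9.536 to 17.824 for Itpr1 and -2.71 to 21.726 for Itpr2. Summing all rows of a symbol gave -0.192 for Itpr1. The cause of these turns was not tested. Depth is known for 2 libraries only, which limits what an absent value shows in the other 4.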
